A study of Mus musculus with 2 samples.

Results

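The axon guidance genes of the mouse mammary gland were taken as the rows of the gene tables whose symbols name netrins, slits, semaphorins, ephrins or their receptors. Symbols starting with Sema, Plxn, Unc5, Efna, Efnb, Epha or Ephb were taken, with Ntn, Nrp, Slit or Robo followed by a digit, and Dcc and Neo1. This gave 72 of 21113 genes, in 12 families of ligands and receptors. Of the 72 genes, 2 matched by their letters only. Unc50 is not a netrin receptor, and Unc5cl is an UNC5-related gene not known as one, so both were kept out of the families. The rule did not use measured values, but the members were chosen with earlier results of these data known.

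RNA was sequenced from mammary glands taken 6 weeks after birth from C57BL/6 mice, in 1 wild-type library and 1 ILN/ILN library. The ILN/ILN sample carried an IRES-LacZ-Neo cassette on both copies of the Mir212/132 locus, the source of miR-212 and miR-132, short RNAs that repress target transcripts. The sources used here do not say how many animals went into a library. Summed over the genes of the tables, fragments came to 46133338 (wild type) and 42953129 (ILN/ILN). No difference below has a replicate check, and intervals in parentheses are 95% exact intervals for counting error alone, which compare these libraries and not the genotypes.

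Guidance molecules were named for steering growing axons, and they also act outside the nervous system. Netrins are secreted and bind Dcc, neogenin and the UNC5 receptors, slits bind Robo receptors, class 3 semaphorins bind neuropilins with plexins as signalling partners, and ephrins bind Eph receptors on neighbouring cells. In the growing mammary gland, netrin-1 and neogenin are known for holding the cap cells of the end bud to the layer beneath, and slits with Robo1 for the adhesion and branching of ducts. Several of the receptors are also known from blood vessels.

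The tissue label was checked against markers before the guidance genes were compared. White adipocyte genes, summed over 6 markers, stood at 9085 in wild type and 9460 in ILN/ILN, on the deposited FPKM-like scale, which is scaled for gene length and library size. The 6 luminal epithelial markers summed to 36.7 and 0.514, and Krt8 had 742 and 0 fragments, so the ILN/ILN library held almost none of the defining RNA of ductal epithelium. The basal keratin genes Krt5, Krt14 and Krt17 had 78, 62 and 59 fragments in wild type and also none in ILN/ILN. The other 3 of the 6 basal and myoepithelial markers were present in both libraries. Their fragments were 147 and 109 for Trp63, 4677 and 3343 for Acta2 and 1820 and 1731 for Mylk. The 6 summed to 67.3 and 51.1, of which Acta2 alone was 56.5 and 43.4, so the sum mostly follows Acta2. Whether the RNA of these 3 genes came from basal cells was not tested. Sums over 5 B cell markers were 169.7 and 32.9, over 5 T cell markers 43.7 and 16.4, over 6 macrophage markers 1889 and 1228, and over 6 blood endothelial markers 119 and 142. Fewer cells of a type and less RNA per cell cannot be told apart in such tissue libraries. Of the neuronal genes, Snap25, Syt1 and Rbfox3 had at most 13 fragments in a library. Stmn2 was at 2.25 and 1.68, from 200 and 139 fragments. Schwann cell markers summed to 77.3 and 64.7.

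Of the 72 guidance genes, 38 were measured, meaning that the value reached 1 in at least 1 library. By the ratio of (value + 1) of ILN/ILN to wild type, 1 of the 38, Ntn1, was at least 2-fold higher, against 0.407% of all 11556 measured genes. None was at least 2-fold lower, against 1.72% of all measured genes. At 1.5-fold, 2 were higher (1.90% of all) and 1 was lower (5.39% of all). The median log2 ratio of the 38 was 0.15, beside 0.02 over all measured genes, and 25 of the 38 lay above 0, against 52.3% of all. With no minimum the median over all 72 was 0.01, and it was 0.09 with a minimum of 5 and 0.06 with a pseudocount of 5. Each share of the guidance genes rests on few genes and on 1 library per genotype. Of the 38 genes, 34 passed the minimum in both libraries, Efna2 and Sema6c passed through the wild-type library alone, and Robo1 and Sema5a through the ILN/ILN library alone. For those that passed through 1 library alone, the minimum set the direction of the deposited values.

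**Figure D1:**
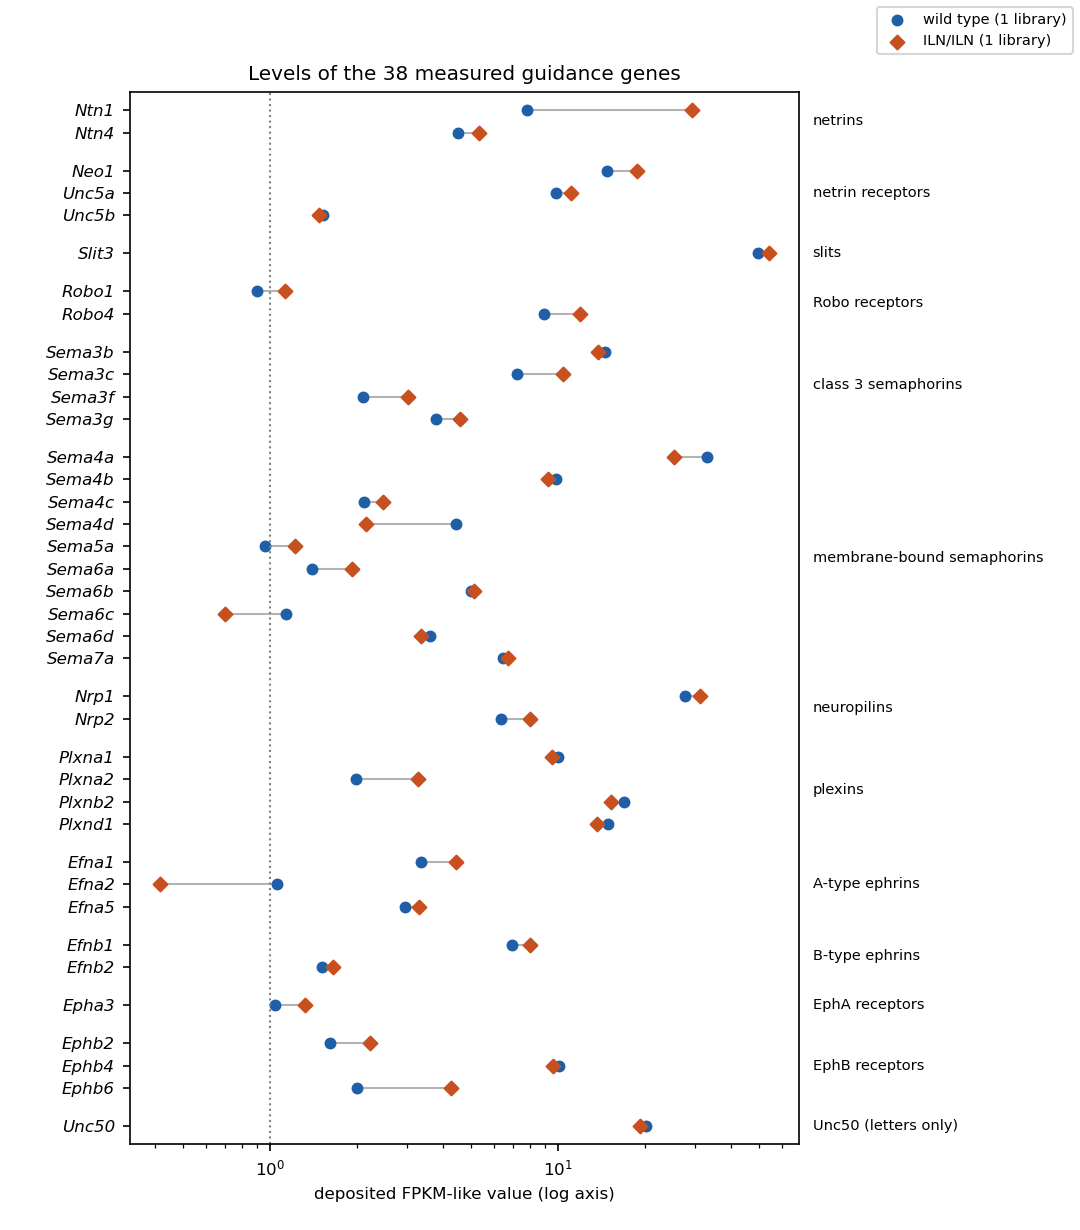
Deposited FPKM-like value (log axis) of the 38 measured guidance genes in the wild-type library (circles) and the ILN/ILN library (diamonds), grouped by family, with the minimum of 1 as a dotted line. Ntn1 shows the longest gap, from 7.82 to 29.2, and Slit3 has the highest level in both libraries.

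Netrin-1, the secreted guidance cue encoded by Ntn1, stood apart from the other members. Its value was 7.82 in wild type and 29.2 in ILN/ILN, from 2157 and 7495 fragments. It was 3.73-fold higher in the ILN/ILN library (3.56 to 3.92), with a log2 ratio of (value + 1) of 1.78. Among all 11556 measured genes this was the 4th highest ratio. By level, Ntn1 lay above 46.7% of measured genes in the wild-type and above 78.4% in the ILN/ILN library. The gene has 1 isoform in the tables, so no choice between isoform estimates enters its values.

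The other netrins differed less. Ntn4, which encodes a netrin of basement membranes, was at 4.51 and 5.33, from 512 and 563 fragments (1.18-fold higher; 1.05 to 1.33). Ntn3 stayed under the minimum at 0.649 and 0.872, and Ntn5 had 1 and 0 fragments. The summed netrin level was 13.0 in wild type and 35.4 in ILN/ILN. Ntn1 made up 60.2% of it in wild type and 82.5% in ILN/ILN, and Ntn4 made up 34.7% and 15.1%. Nearly all of the difference in summed netrin level was therefore Ntn1.

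The netrin receptors did not follow the ligand in size. Neo1, which encodes neogenin, a receptor of netrins and of repulsive guidance molecules, had deposited values of 14.8 and 18.8. Those values came from the authors' derived estimate in both libraries, which exceeded the original estimate made from the fragments. The fragments themselves, 2818 and 2682, gave a ratio of 1.02 (0.969 to 1.08). Unc5a, a receptor known for repulsion and for death signalling without ligand, was at 9.81 and 11.1 (1.13-fold higher; 1.06 to 1.21). Unc5b, known from endothelial tip cells, was at 1.53 and 1.48 (0.964; 0.838 to 1.11). Dcc, the classical attractive receptor, had 1 and 3 fragments, Unc5c had 33 and 23, and Unc5d had none in either library.

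Thus 3 of 6 netrin receptors were measured, all within 1.5-fold. Per kilobase, on fragments, Ntn1 was at 0.955 times the level of Neo1 in the wild-type library and at 3.49 times in the ILN/ILN library. Against Unc5a the same ratio was 0.797 and 2.63. By these ratios, given without intervals, the ligand was close to Neo1 and below Unc5a in the wild-type library, and above both in the ILN/ILN library. By deposited values, which for Neo1 use the derived estimate, Ntn1 was at 7.82 against 14.8 for Neo1 in wild type. In ILN/ILN the deposited values were 29.2 against 18.8. All 6 luminal epithelial markers were lower in the library where Ntn1 was higher, with the sums given above, and the part of cell makeup in the Ntn1 value was not tested.

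The microRNAs of the altered locus share a seed, the stretch that pairs with targets, so the guidance genes were searched for its match. Both mature sequences follow, 5′ to 3′, from RefSeq (GRCm38.p6, plus strand), with the seed, bases 2 to 8, in capitals. The first lies at chr11:75173723-75173744 and the second at chr11:75173443-75173464.
miR-132-3p: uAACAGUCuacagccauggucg
miR-212-3p: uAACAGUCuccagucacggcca
The match searched was GACTGTT, on the transcript strand only, in the longest 3′ untranslated region that GENCODE gives each gene on GRCm38. It was present in 7 of the 38 measured guidance genes, or 18.4%, against 13.2% of 11338 measured genes searched. The regions of the guidance genes were longer, with a median of 1704 bases against 1300. Per 10 kb searched there were 1.23 matches in the guidance genes, from 10 matches, against 0.858 over all measured genes. Of the 7 genes, which include Unc50, 4 had a log2 ratio above 0, among them Sema5a, whose direction the minimum set. Among the 31 genes with no match 21 lay above 0, and the medians were 0.18 with and 0.15 without a match. On fragments that order turned, with medians of 0.03 and 0.13. Over all measured genes the medians were 0.05 and 0.01 by either measure. There 871 of 1491 genes with a match and 5055 of 9847 without had a log2 ratio above 0.

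The matches in the measured members other than Unc50 and Sema6a are shown because they include a pair of netrin receptors and an Eph receptor with 3 matches. Each sequence is cut from the transcript with the match in capitals.
Neo1: ccggtgtgctttGACTGTTctacaaa
Unc5b: gtggttctgggaGACTGTTcaggtct
Ephb2, first: tgctgcagataaGACTGTTagaagag
Ephb2, second: ggccccaggagaGACTGTTcctcact
Ephb2, last: ttcccagccagtGACTGTTaccacaa
Sema5a: ggtaaacttgcaGACTGTTaccgatc
Plxnd1: cacactggaaatGACTGTTccagggg
The Ephb2 region is 7783 bases long, and 2 of its 3 matches, like that of Sema5a, are followed by an A. Ephb2 was 1.38-fold higher in the ILN/ILN library (1.20 to 1.58), Sema5a 1.27-fold higher (1.13 to 1.44), and Plxnd1 1.09-fold lower (1.05 to 1.14). Because Sema5a passed the minimum through the ILN/ILN library alone, it had to be higher there to some degree. Sema6a held 2 matches and was 1.37-fold higher (1.21 to 1.55). The region of Ntn1, 3642 bases long, did not hold these letters, nor did those of Ephb6 and Sema4d. A match here is a description of letters and not a shown site of binding.

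**Figure D2:**
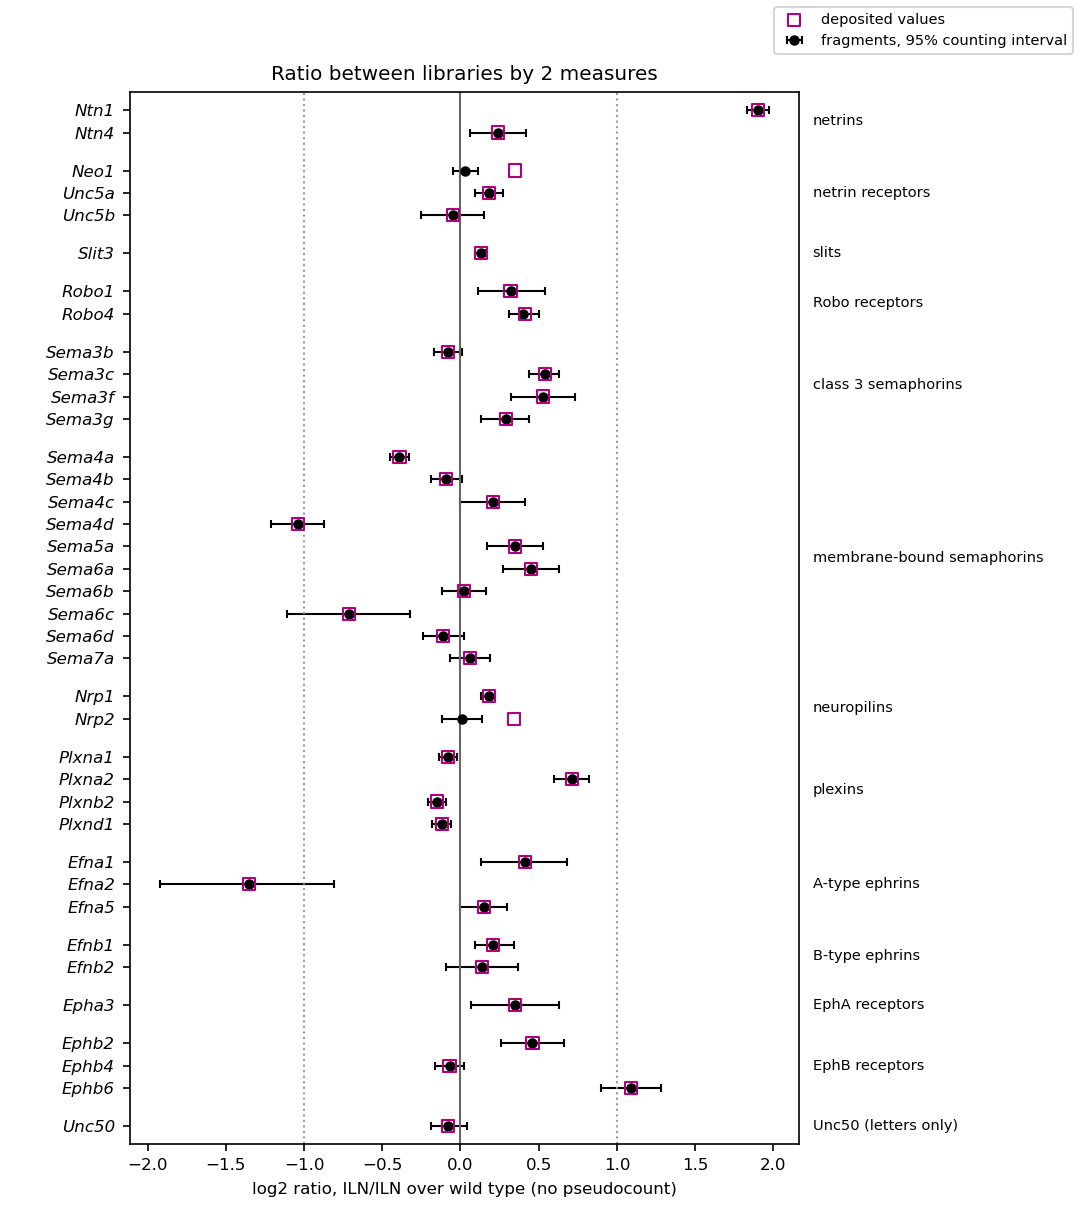
Log2 ratio of ILN/ILN over wild type for each measured guidance gene, without a pseudocount, from fragments (points, with 95% counting intervals) and from deposited values (open squares), with 2-fold marked by dotted lines. The squares part from the points for Neo1 and Nrp2, where the deposited value used a derived estimate in at least 1 library.

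Among slits, which repel axons and act on adhesion, Slit3 was the only measured gene and had the highest level of all guidance genes. It was at 49.3 and 53.9, from 11841 and 12042 fragments (1.09-fold higher; 1.06 to 1.12). It made up 99.4% of the summed slit level in wild type and 99.5% in ILN/ILN. Slit2, best known for repulsion in the forebrain, had 99 and 98 fragments (1.06; 0.796 to 1.42), and Slit1 had 13 and 2. The slit signal of both libraries was thus almost wholly Slit3.

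Of 4 Robo receptors, 2 were measured. Robo4, the endothelial member, was at 8.97 and 11.9, from 1574 and 1940 fragments (1.32-fold higher; 1.24 to 1.42). The blood endothelial markers Cdh5 and Esam moved with it, at 31.6 and 44.5 and at 20.4 and 27.9, whereas Pecam1 was at 40.3 and 38.6, and their part in the Robo4 value was not tested. Robo1, the slit receptor known from mammary ducts, was at 0.901 and 1.13 (1.25-fold higher; 1.08 to 1.45). It passed the minimum through the ILN/ILN library alone, so it had to be higher there to some degree. Robo2 had 16 and 1 fragments and Robo3, which acts in axon crossing, had 4 and 1.

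Of 7 secreted class 3 semaphorins 4 were measured, and 3 of these were higher in the ILN/ILN library by small amounts. The median log2 ratio of the 4 was 0.30, and over all 7 genes it was 0.06. Sema3c, which signals through neuropilins and plexins in heart and vessel development, was at 7.18 and 10.4, from 1701 and 2296 fragments (1.45-fold higher; 1.36 to 1.54). Sema3f, known as a ligand of neuropilin-2, was at 2.10 and 3.02 (1.44-fold higher; 1.25 to 1.66). Sema3g, known from arterial endothelium, was at 3.76 and 4.58 (1.22-fold higher; 1.10 to 1.36). Sema3b had the highest level of the class and was at 14.5 and 13.8 (0.948; 0.890 to 1.01). Its share of the summed class 3 level was 50.7% and 41.9%, while that of Sema3c was 25.0% and 31.6%. Sema3a, Sema3d and Sema3e stayed under the minimum, with 85 to 147 fragments per library, and their intervals included 1.

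The membrane-bound semaphorins held the lowest ratio of (value + 1) among the measured guidance genes, although Efna2, at far fewer fragments, had the lower fragment ratio. Sema4d, also called CD100 and known from T cells, where it acts on B cells and on plexin-B1, was at 4.42 in wild type and 2.15 in ILN/ILN. Its 924 and 419 fragments put it 2.05-fold lower there (1.83 to 2.31), and its log2 ratio of (value + 1) was -0.78. The T cell markers were lower in the same library in 5 of 5 genes, with Cd3e at 8.68 and 2.75 and Cd4 at 9.79 and 2.89. The 5 B cell markers were all lower too, with Cd79a at 80.6 and 9.89, and the part of lymphocytes in the Sema4d value was not tested.

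Sema4a, a semaphorin of immune cells and other tissues, had the highest level among the membrane-bound genes. It was at 33.0 and 25.2, from 4703 and 3342 fragments (1.31-fold lower; 1.25 to 1.37). It made up 48.0% and 42.8% of the summed level of the membrane-bound genes. Macrophage markers were lower in 6 of 6 genes in the same library, with Csf1r and Cd68 among them, and their part was not tested. Sema6c, a transmembrane semaphorin, was at 1.14 and 0.695 (1.64-fold lower; 1.25 to 2.16), from only 153 and 87 fragments. It passed the minimum through the wild-type library alone, so it had to be lower in the other to some degree.

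The remaining 7 measured membrane-bound genes lay within a narrow band, from -0.08 to 0.28 in log2 ratio. Sema6a, a ligand of plexin-A2 and plexin-A4, had 465 and 592 fragments, at the upper end of that band. Sema7a, which is anchored by a lipid and binds plexin-C1 and integrins, was at 6.43 and 6.71 (1.04; 0.954 to 1.14). Sema4c was at 2.12 and 2.46. Sema4b was at 9.85 and 9.24, Sema6d at 3.59 and 3.33 and Sema6b had 858 and 812 fragments, all with intervals that included 1. Over the 10 measured genes of this family 5 lay above 0 and 5 below, with a median of -0.03. Sema4f, Sema4g and Sema5b stayed under the minimum.

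Both neuropilins, the co-receptors of class 3 semaphorins and of VEGF, were well measured. Nrp1 was at 27.5 and 31.1, from 7802 and 8219 fragments (1.13-fold higher; 1.10 to 1.17). Nrp2 was listed at 6.33 and 8.01, but its wild-type value came from the original and its ILN/ILN value from the derived estimate. Its fragments, 995 and 935, gave a ratio of 1.01 (0.922 to 1.10). The family median was thus 0.24 on deposited values and 0.09 on fragments.

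Plexins, the signalling receptors of semaphorins, were close to even except for plexin-A2. Plxna2 was at 1.99 and 3.27, from 1062 and 1619 fragments (1.64-fold higher; 1.51 to 1.77). The other 3 measured plexins were slightly lower in the ILN/ILN library. Plxnb2, a receptor of class 4 semaphorins, had the highest level and was at 16.9 and 15.3 (1.11-fold lower; 1.07 to 1.16). Plxnd1, the endothelial receptor of Sema3e, was at 14.9 and 13.7 (1.09-fold lower; 1.05 to 1.14), and Plxna1 had 4366 and 3848 fragments (1.06-fold lower; 1.01 to 1.10). Plxnb1, the receptor best known for Sema4d, had 151 and 132 fragments (0.939; 0.738 to 1.19) and stayed under the minimum. Plxnc1, the receptor of Sema7a, had 336 and 251 (1.25-fold lower; 1.06 to 1.47).

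**Figure D3:**
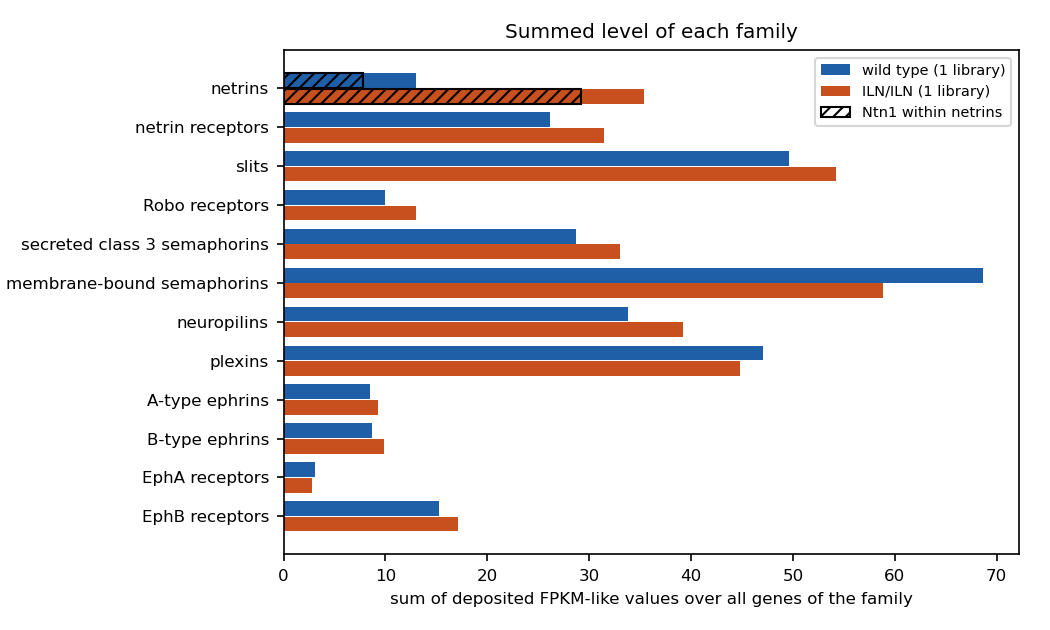
Sum of the deposited FPKM-like values over all genes of each family, measured or not, in the wild-type library (blue) and the ILN/ILN library (orange), with the Ntn1 part of the netrins hatched. Netrins went from 13.0 to 35.4, while membrane-bound semaphorins had the highest sum in both libraries, at 68.7 and 58.8.

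A-type ephrins are anchored by a lipid to the cell surface and bind EphA receptors. Efna1, known from endothelium, was at 3.34 and 4.43, from 197 and 243 fragments (1.32-fold higher; 1.09 to 1.61). Efna5 was at 2.95 and 3.28, from 720 and 746 fragments. Efna2 went the other way at 1.06 and 0.415, from 107 and 39 fragments (2.55-fold lower; 1.76 to 3.79). Because Efna2 passed the minimum through the wild-type library alone, it had to be lower in the other to some degree. Efna3, with 10 and 20 fragments, and Efna4, with 69 and 54, stayed under the minimum.

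EphA receptors were low throughout, with 1 of 9 measured. That gene, Epha3, known from mesenchyme, was at 1.04 and 1.32, from 197 and 233 fragments (1.27-fold higher; 1.05 to 1.54). Epha1, known from epithelia, had 133 and 58 fragments (2.14-fold lower; 1.56 to 2.96), and Epha2 had 170 and 153 (0.967; 0.772 to 1.21). The luminal markers lower in the same library are given above, and their part in the Epha1 value was not tested. Epha6 and Epha10 had no fragment in either library, Epha5 and Epha8 had at most 4, and Epha7 had 7 and 0. Summed over all 9 genes the level was 3.11 and 2.83, the lowest of the 12 families in both libraries.

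B-type ephrins span the membrane and signal in both directions with EphB receptors. Efnb1 was at 6.90 and 8.01, from 1067 and 1152 fragments (1.16-fold higher; 1.07 to 1.26). Efnb2, the ephrin of arteries, was at 1.51 and 1.66 (1.10; 0.936 to 1.29). Efnb3 stayed under the minimum with 48 and 26 fragments (1.72-fold lower; 1.05 to 2.89).

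Among the measured EphB receptors, Ephb6 differed most. It encodes a receptor without kinase activity that is expressed in T cells and several tissues, and it was at 2.00 and 4.26, from 351 and 695 fragments. It was 2.13-fold higher in the ILN/ILN library (1.87 to 2.42), although its log2 ratio of (value + 1) of 0.81 stayed below the 2-fold line. The T cell markers were lower in that library, and their part in the Ephb6 value was not tested. The median log2 ratio of the 3 measured EphB genes was 0.30, and it turned to -0.06 with no minimum and with a minimum of 5. Ephb4, the venous partner of ephrin-B2 and the highest of the family, was at 10.1 and 9.60 (1.05-fold lower; 0.985 to 1.12). The share of Ephb6 in the summed EphB level was 13.0% in wild type and 25.0% in ILN/ILN. Ephb3, known from intestinal and other epithelia, had 183 and 117 fragments (1.46-fold lower; 1.15 to 1.85).

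Ephb1 gave opposite directions by the 2 measures. Its deposited values fell from 0.743 to 0.356, with the wild-type value from the derived and the ILN/ILN value from the original estimate. Its fragments were 32 and 71, which is 2.38-fold higher (1.55 to 3.74). Across the 72 guidance genes a derived estimate was used in at least 1 library for 5, namely Neo1, Nrp2, Sema4f, Epha7 and Ephb1, and 3 of these used different estimates in the libraries. No direction is drawn here for Ephb1.

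**Figure D4:**
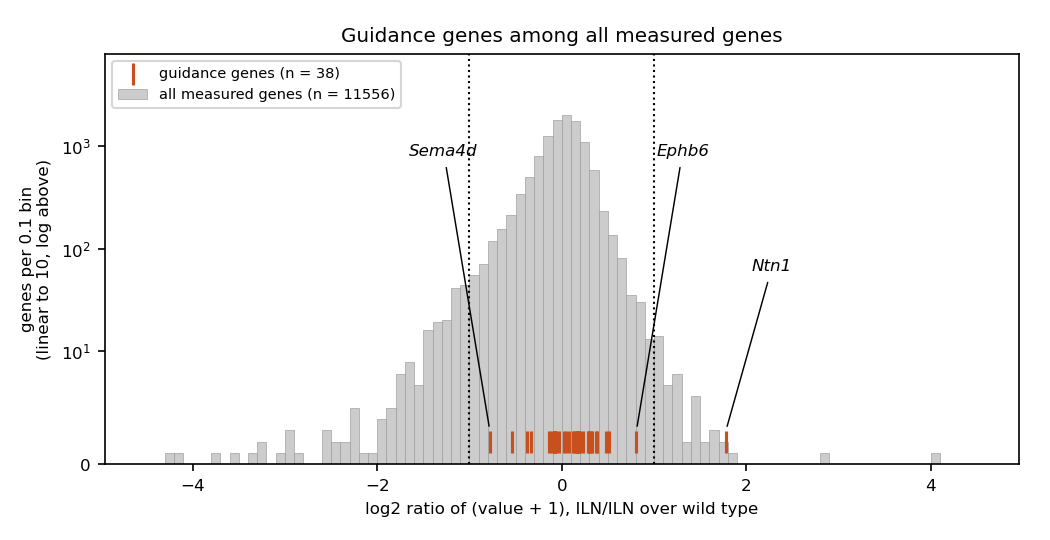
Number of measured genes per bin of 0.1 in log2 ratio of (value + 1) between ILN/ILN and wild type (grey, axis linear to 10 and logarithmic above), with the 38 guidance genes as orange ticks and 2-fold as dotted lines. Ntn1 lies beyond the upper line at 1.78, and Ephb6 at 0.81 and Sema4d at -0.78 lie inside the lines.

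By role, 22 ligands and 15 receptors were measured, and Unc50, at 20.2 and 19.2, was neither. The median log2 ratio was 0.12 for ligands, with 15 of 22 above 0, and 0.17 for receptors, with 10 of 15 above 0. Without Ntn1 the median of the measured genes was still 0.15, and none was past 2-fold on (value + 1). The summed value over all 72 genes was 333 in wild type and 368 in ILN/ILN, and without Ntn1 it was 325 and 339. Of the 38 measured genes, 35 lay within 1.5-fold on (value + 1) and 32 by fragment ratios. By fragment ratios 2 were past 2-fold higher, Ntn1 and Ephb6, and 2 were past 2-fold lower, Sema4d and Efna2. The shares of all measured genes by fragment ratios were not computed, so these counts have no background beside them.

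The 34 genes under the minimum were accounted for by fragments. Of these, 3 had none in either library, 6 had 1 to 9 in the library with more, 14 had 10 to 99 and 11 had 100 or more. Among them Slit1, Robo2 and Unc5cl had 13 and 2, 16 and 1, and 43 and 14 fragments, all lower in the ILN/ILN library. Their ratios were 6.05-fold lower (1.37 to 55.2), 14.9-fold lower (2.31 to 625) and 2.86-fold lower (1.53 to 5.66). The wide intervals reflect how few fragments there were. Others under the minimum were higher, among them Ntn3 (1.34-fold; 1.08 to 1.67), Sema4g (1.46-fold; 1.06 to 2.03) and Plxna4 (1.22-fold; 1.05 to 1.42).

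Genes that act beside or after the guidance receptors were read from a list of 81 genes, of which 79 were in the tables and 61 were measured. On (value + 1) none of the 61 was past 2-fold, against 0.407% of all measured genes higher and 1.72% lower. At 1.5-fold 3 were higher (1.90% of all) and none was lower (5.39% of all). Their median log2 ratio was 0.08, with 35 above 0, against 52.3% of all, and 26 below. Kinases and adaptors had 6 of 16 above 0 and a median of -0.06.

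Within that list the largest differences were partly a matter of the estimate. Enah, an actin regulator of the growth cone, was listed at 1.55 and 3.43, but its 246 and 251 fragments gave 1.10 (0.915 to 1.31). Ntng2, a lipid-anchored netrin-G, was listed at 4.54 and 8.23, from 268 and 294 fragments, a log2 fold of 0.24 (-0.01 to 0.48). Mical3, an oxidase acting on the cytoskeleton, had 772 and 1190 fragments (1.66-fold higher; 1.51 to 1.81). Flrt2, a ligand of UNC5 receptors, had 595 and 957 (1.73-fold higher; 1.56 to 1.92). Evl, a partner of actin filaments, was at 29.6 and 20.3, from 1559 and 992 fragments (1.46-fold lower; 1.35 to 1.59). Sdc1, a heparan sulphate proteoglycan of epithelia, was at 6.03 and 4.16, or 1.45-fold lower (1.30 to 1.62). The luminal markers were also lower in that library, and their part in the Sdc1 value was not tested.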

How the data were processed

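Polyadenylated RNA of 1 wild-type and 1 ILN/ILN library was copied with a dUTP-marked second strand and run on 2 lanes each, per the labels' protocols. Build mm9, TopHat 1.4.1, Bowtie 0.12.3 and bedtools are listed in the submitters' processing notes, without a role. The sources used here give no strand setting, annotation or gene-table program. Per the file headers and values, the authors deposited an FPKM-like value, its log2(value + 1), and an unscaled signal per kilobase that takes whichever is larger of 2 estimates, named original and derived. The FPKM-like value is that signal divided by 48.6 (wild type) or 45.2 (ILN/ILN), in units of 1000000. The original estimate times the deposited length was whole within 0.01 in 100.0% of genes, and this is called fragments. Estimates differed between libraries in 362 genes.

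Folds are ratios of fragments scaled by each library's total over genes, with exact conditional (Clopper-Pearson) intervals from scipy 1.17.1, covering counting error only. Log2 ratios use deposited values with a pseudocount of 1, which understates low genes. A gene counted as measured where the value reached 1 in at least 1 library. No p-value was computed, since each genotype had 1 library. A count of 0 allows up to 3 fragments. The steps were tested on simulated data. All 72 gene identifiers matched the RefSeq table. In full were named Ntn1, members past 1.5-fold, and in each family the highest level and the largest ratio, with up to 6 other pathway genes. The members and lists were chosen with earlier results of these data known. Because the reference build (GRCm38) differs from mm9, gene coordinates are not given. Alternatives covered pseudocount, minimum, scaling, fold threshold and fragments in place of deposited values.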

Additional observations from a re-analysis of the deposited data

How the results depend on the processing

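Ntn1 was past 2-fold under every alternative tried, with log2 ratios from 1.42 to 1.89, and no sign changed among the 18 members named in full under 5 alternatives each. With a pseudocount of 0.1 instead of 1, 2 members were past 2-fold higher (Ntn1 and Ephb6) and 2 lower (Sema4d and Efna2). The shares of all measured genes at that pseudocount were not computed. At a 1.5-fold threshold 2 were higher (1.90% of all) and 1 was lower (5.39% of all). Family medians moved mostly where few genes were measured. With no minimum they were 0.19 for netrins (0.99 before), 0.07 for Robo receptors (0.27), 0.06 for class 3 semaphorins (0.30), 0.02 for slits (0.13), 0.00 for EphA (0.19) and netrin receptors (0.16), and -0.06 for EphB receptors (0.30), whose sign turned there and with a minimum of 5. The sign for membrane-bound semaphorins turned too, from -0.03 to 0.02. The median over the members was 0.15 for the measured and 0.01 with no minimum. With a pseudocount of 5 the family medians were 0.08 for B-type ephrins, 0.12 for slits and 0.07 for EphA receptors, and with 0.1 the EphA value was 0.32. From fragments the neuropilin median was 0.09, because the Nrp2 libraries used different estimates. With a minimum of 5, A-type ephrins and EphA receptors had no measured gene. TMM and median-of-ratios scaling moved none of the 18 members beyond counting error. No paired analysis was possible because each genotype had 1 library. Depth limits the members under the minimum, where 3 fragments are the most a count of 0 allows.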

Other observations

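Ligands and receptors of their partner families were compared per kilobase within each library, for pairs chosen after their values were seen. Binding within each pair was not tested. Slit3 was at 5.50 times the level of Robo4 in the wild-type and 4.54 times in the ILN/ILN library. Sema3c was at 0.261 and 0.334 times the level of Nrp1, and Efnb2, the arterial ephrin, at 0.150 and 0.173 times that of its venous receptor Ephb4. Sema4d was at 0.261 and 0.141 times the level of Plxnb2, a plexin that binds class 4 semaphorins.

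In the GRCm38 annotation Ntn1, Slit3 and Efnb3 lie on chromosome 11, which also carries the microRNA locus. Their fragment ratios ran from 3.73-fold higher (Ntn1) through 1.09-fold higher (Slit3) to 1.72-fold lower (Efnb3). Several members share exon bases with a neighbouring gene in that annotation. On opposite strands these include Ephb4 with Zan (33 bases), Unc5a with Hk3 (34 bases) and Epha1 with Zyx (156 bases). Larger ones are Plxna1 with Gm26811 (191 bases) and Sema4c with D430040D24Rik (334 bases), also on opposite strands. Values of these genes are uncertain if strand was not used in counting. Ntn3 shares 89 bases with Tbc1d24 on the same strand, so its value is uncertain even if strand was used. Ntn1, Ephb6, Sema4d and Plxna2 shared no exon base with another annotated gene.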
